A study of Mus musculus with 10 samples.

Results

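The cytosolic ribosomal protein genes encode the proteins of the large and small subunits of the ribosome that reads messenger RNA in the cytoplasm. They were taken here as all probe sets of the array with exactly 1 gene symbol that begins with Rpl or Rps followed by a digit, or that is Rplp0, Rplp1, Rplp2 or Rpsa, leaving out the Rps6k kinases, pseudogene names and array controls. The rule found 106 of 45101 probe sets, for 50 genes of 18194 with a symbol of their own. Large subunit names accounted for 48 probe sets of 26 genes and small subunit names for 58 probe sets of 24 genes. A few of these genes are not standard ribosomal proteins: Rpl22l1, Rps27l, Rpl3l, Rpl39l and Rps4l are paralogues, Rpl7l1 is a Rpl7-like assembly factor, and Rps19bp1 encodes a partner of Rps19.

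Both groups were C57Bl/6 mice aged 8 to 12 weeks, operated on under halothane, and their spleens were taken after 6 h. In the CLP group (5 mice) the cecum was ligated and punctured, which releases gut bacteria into the abdomen and produces peritonitis with sepsis. The sham group (5 arrays, taken as 5 mice) had the cecum drawn out and handled at laparotomy, without ligation. CD4+ splenocytes of each mouse were enriched by magnetic removal of other cells, to about 91%, and RNA of each mouse was amplified in 2 rounds and read on its own Affymetrix mouse array. The sex of the mice is not given in the labels, and the cells are a mixture of all CD4+ subsets plus what the enrichment left.

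Ribosomal proteins are made in near-equal amounts and assembled on ribosomal RNA in the nucleolus, so their messages usually stay in step. Many of these messages start with a C and a run of pyrimidines, the TOP sequence. Through it the kinase mTORC1 and the RNA-binding protein Larp1 control their translation. In T cells, activation raises ribosome production before division. Transcript arrays read the amount of message and not its translation.

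Start sites from RefSeq (build GRCm38.p6) were found for 44 of the 50 genes, with 52 starts in all. Windows of 30 bases are shown for 5 genes with a TOP-like start and for Rps24 and Rpl12, whose probe sets are described below; the first 15 bases precede the annotated start, and capitals mark the pyrimidines that run on from the start base.
Rpl35, chr2:39005117-39005146, minus strand: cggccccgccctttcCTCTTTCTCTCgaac
Rpl38, chr11:114668565-114668594, plus strand: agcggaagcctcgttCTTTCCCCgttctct
Rps6, chr4:86857353-86857382, minus strand: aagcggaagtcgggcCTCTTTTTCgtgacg
Rps18, chr17:33955651-33955680, minus strand: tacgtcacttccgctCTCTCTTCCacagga
Rps10, chr17:27635230-27635259, minus strand: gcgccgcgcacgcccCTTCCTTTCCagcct
Rps24, chr14:24490663-24490692, plus strand: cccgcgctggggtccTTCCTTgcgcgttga
Rpl12, chr2:32961697-32961726, plus strand: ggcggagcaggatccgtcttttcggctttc
A start base C followed by at least 4 more pyrimidines was present at 8 of the 52 member starts (15.4%) and at 823 of all 32851 starts in the table (2.51%). These 8 belonged to Rpl14, Rpl35, Rpl38, Rplp2, Rps6, Rps10, Rps18 and Rps27. The first listed start of Rps24 begins with T and has 6 pyrimidines in a row, while the annotated start of Rpl12 begins with G, although pyrimidines follow 1 base later. The letters CCGGAAG or their reverse complement CTTCCGG, the core bound by ETS factors, lay within 250 bases before to 50 after the start at 21 of 52 member starts (40.4%) and at 2910 of all starts (8.86%). An annotated start can lie some bases away from the start used in these cells, so these counts describe the table.

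Array medians as deposited lay between 127.6 and 142.4 intensity units, and all values below are log2 signals after scaling to a common median. They are therefore relative to the other transcripts of the same array: a change in total RNA per cell would not show, and fewer cells of a type cannot be told apart from less RNA per cell. The 10 arrays fell into classes by the signal of the 18S ribosomal RNA control probe set: 6 arrays (3 CLP, 3 sham) lay between 2949 and 5383 and 4 arrays (replicates 2 and 4 of both groups) between 195 and 282. The ratio of the Gapdh control's 3 prime to 5 prime signal, which rises as copies shorten, was 20.7 to 29.5 in the first class and 9.45 to 13.4 in the second. The same ratio of the actin control overlapped between the classes, at 6.25 to 11.7 and 7.40 to 10.8. The CD4 T cell markers Cd3e, Cd3d, Cd3g, Cd4, Trat1, Thy1 and Cd5 were 7 of 8 listed that had a probe set, with a summed signal of 12161 to 14838 in CLP arrays and 14559 to 20741 in sham arrays. The summed signal of 4 erythroid markers was 1266 to 5867 in CLP and 702 to 2667 in sham arrays, that of 5 B cell markers 2653 to 5294 and 2675 to 4380, and that of 5 neutrophil markers 2059 to 10713 and 3425 to 9606. The 4 NK cell markers were the list whose groups did not overlap, with 1994 to 2517 in CLP and 2535 to 3334 in sham arrays, and the defining NK receptor Ncr1 was below the floor on all arrays. For 5 monocyte and macrophage markers the sums were 3245 to 4214 in CLP and 2628 to 3972 in sham arrays, for 4 dendritic cell markers 732 to 1039 and 695 to 836, and for 2 CD8 markers 468 to 580 and 394 to 545. The part of such cells in the ribosomal protein signals was not tested.

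The comparison of CLP with sham asks whether the messages of the translation machinery differ in CD4 cells 6 h into abdominal sepsis. For nearly all ribosomal protein genes no difference in signal was detected, and the 95% intervals of most of their brightest probe sets were narrow. Whether the brightest signals still followed the amount of RNA was not tested. Of the 95 member probe sets bright enough to be tested, 1 passed the threshold (1.05%), a dim probe set of Rps24 that fell in CLP. Over all 27022 probe sets tested, 190 passed (0.703%), 0.167% higher and 0.537% lower in CLP, so the members' share was near the background. The test was limma's moderated test, two-sided, with the Benjamini-Hochberg adjustment across every probe set tested and a threshold of 0.05. P-values measure the spread between mice, with each array taken as 1 mouse. At an unadjusted p under 0.05 the count was 5 of 95 (5.26%), against 10.9% of all probe sets. The groups did not overlap in 3 member probe sets (3.16%), 1 higher and 2 lower in CLP, against 2.97% of all (0.862% higher and 2.11% lower).

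Taking each gene by its brightest tested probe set gave 45 genes, of which none passed (98 of 13073 genes, 0.75%, passed over all), and 2 had an unadjusted p under 0.05 (4.44%, against 11.8% of all genes). For 44 of the 45 the 95% interval of the CLP difference lay within 1.5-fold in both directions, and for 32 within 1.2-fold. Over all genes tested those shares were 79.8% and 15%, against 97.8% and 71.1% of the members. Interval width falls with signal: among probe sets with a mean log2 signal of at least 12, the intervals of 93.8% of all and of 60 of 60 members lay within 1.5-fold, and those of 45.2% and 73.3% within 1.2-fold. These intervals are for one gene at a time and are not adjusted. Above the cut at 12 the members were not matched to all probe sets in signal, and all probe sets include the members. Over all probe sets tested, the 5th to 95th percentile of the differences was -0.28 to 0.27 near a signal of 12.25. Near 13.75 it was -0.03 to 0.09. The median log2 difference, CLP minus sham, was 0.002 over 24 large subunit genes and 0.007 over 21 small subunit genes, beside 0.005 over all genes tested.

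**Figure D1:**
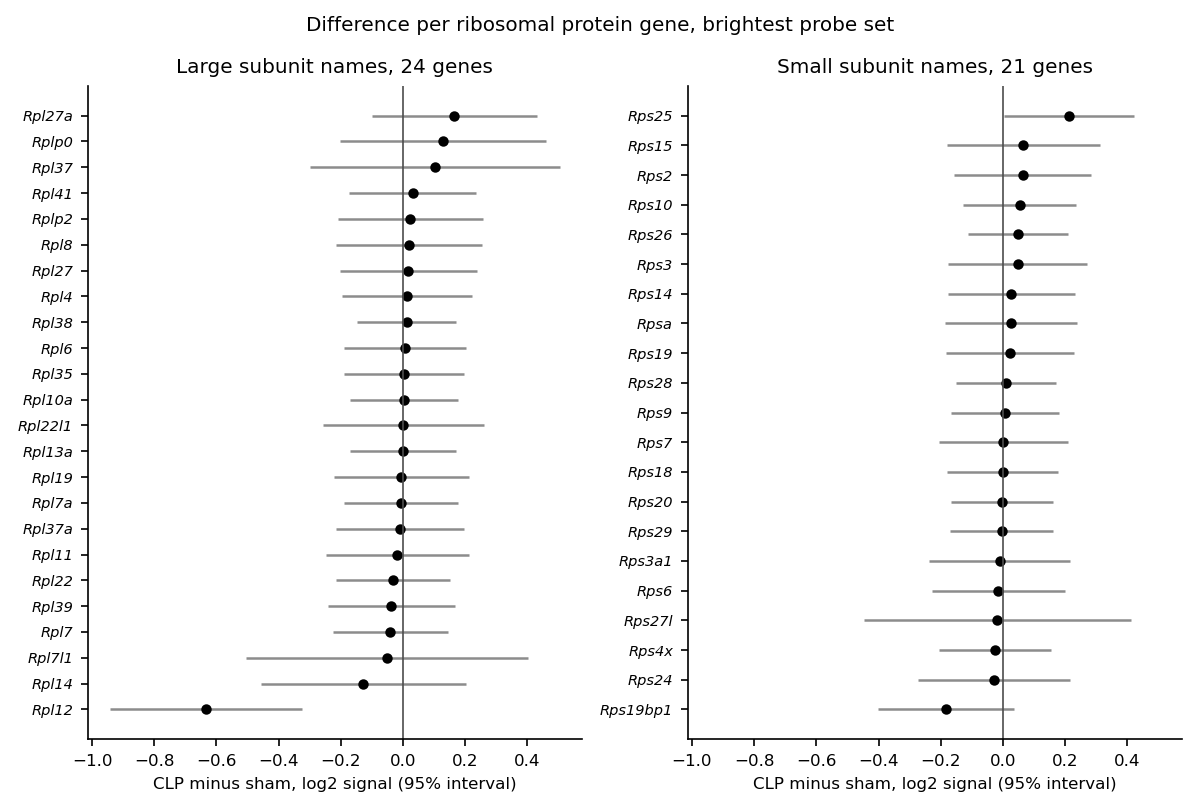
Log2 difference, CLP minus sham, of each of the 45 tested genes by its brightest probe set (points) with the 95% interval of the limma fit (lines), 24 large subunit names on the left and 21 small subunit names on the right. All intervals but those of Rpl12 and Rps25 include 0.

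Among large subunit genes, 13 had a higher and 11 a lower mean in CLP, and the quartiles of the differences were -0.02 and 0.02. The stalk proteins Rplp0 and Rplp2, which recruit elongation factors to the ribosome, differed by 0.13 ± 0.15 (SE) and 0.02 ± 0.11. Rplp0 ran through 12.92, 13.09, 12.92, 12.43 and 12.71 in CLP replicates 1 to 5 and 12.57, 12.46, 12.99, 12.47 and 12.95 in sham replicates 1 to 5. Both groups spanned the same range, and the high and low arrays were mixed. Rpl11, which with Rpl5 and ribosomal RNA can bind and block Mdm2, the inhibitor of p53, differed by -0.02 ± 0.10 (SE). Rpl13a, a protein that can leave the ribosome to silence inflammatory messages in macrophages, differed by -0.0009 ± 0.08 (SE), from 13.73 on average. Rpl22, needed for the development of alpha-beta T cells, gave -0.03 ± 0.08 and its paralogue Rpl22l1 gave 0.0005 ± 0.12. The largest positive values, Rpl27a (0.16 ± 0.12), Rplp0, Rpl37 (0.10 ± 0.18) and Rpl41 (0.03 ± 0.09), all had intervals that include 0. The same held for the negative values of Rpl14 (-0.13 ± 0.15), Rpl7l1 (-0.05 ± 0.21) and Rpl7 (-0.04 ± 0.08). Rpl12 was the exception among large subunit genes and is described with the dim probe sets.

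Among small subunit genes, 12 had a higher and 9 a lower mean in CLP, with quartiles of -0.01 and 0.05. Rps6, the target of the S6 kinases downstream of mTORC1, had log2 signals of 10.49, 10.75, 10.49, 10.37 and 10.38 in CLP replicates 1 to 5 and 10.36, 10.65, 10.43, 10.55 and 10.56 in sham replicates 1 to 5. The groups overlapped throughout, and the difference was -0.01 ± 0.10 (SE). Rps3, which also binds the p65 subunit of NF-kB, differed by 0.05 ± 0.10, and Rpsa, also known as the laminin receptor, by 0.03 ± 0.10. Among genes mutated in Diamond-Blackfan anaemia, Rps19 gave 0.02 ± 0.09, Rps26 0.05 ± 0.07, Rps10 0.05 ± 0.08 and the brightest probe set of Rps24 -0.03 ± 0.11 (SE). Rps27l, a paralogue induced by p53, differed by -0.02 ± 0.20, Rps4x by -0.03 ± 0.08, Rps2 by 0.06 ± 0.10 and Rps15 by 0.07 ± 0.11. Rps19bp1, which is no part of the ribosome, had the lowest value, -0.18 ± 0.10 (adjusted p = 0.582).

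Rps25, a small subunit protein needed for initiation at some viral RNA entry sites, had the highest value of its subunit. Its signals were 10.57, 10.45, 10.33, 10.29 and 10.56 in CLP replicates 1 to 5 and 10.26, 10.02, 10.28, 10.22 and 10.37 in sham replicates 1 to 5. The groups overlapped in the range between 10.29 and 10.37. The difference of 0.21 ± 0.10 (SE) had an unadjusted p = 0.0476 in the limma fit and an adjusted p = 0.447.

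Averaged over the genes of a subunit, the arrays lay close together and the groups overlapped. The large subunit mean was 12.07 ± 0.10 (SD, n = 5) in CLP and 12.09 ± 0.09 in sham arrays, and the small subunit mean 12.66 ± 0.10 and 12.65 ± 0.07. For the large subunit the lowest array was CLP replicate 5 (11.93) and the highest sham replicate 5 (12.24); for the small subunit these were CLP replicate 5 (12.53) and CLP replicate 2 (12.79). The difference between the large and the small subunit mean of the same array was between -0.60 and -0.58 in CLP arrays and between -0.61 and -0.48 in sham arrays. Signals of different probe sets are not on a common scale, so only the spread of this difference is read.

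The differences of member probe sets ran wider below a mean log2 signal of 12 than from 12 upwards. They did not grow steadily as signal fell: over all probe sets tested, the 5th to 95th percentile was -0.50 to 0.35 near 9.75. Near 6.75 it was -0.27 to 0.21. In the 60 member probe sets with a mean log2 signal of at least 12 the difference ran from -0.09 to 0.13. None of them had an unadjusted p under 0.05 by limma, against 46 of all 564 probe sets of that brightness. The median spread between arrays of a group was 0.126 (SD) in these 60 members and 0.131 in all 564. The 564 include the 60 members and bright ribosomal protein probe sets with several symbols. In the 35 member probe sets below 12 the differences ran from -0.88 to 0.93, with a median SD of 0.255. All 5 members with an unadjusted p under 0.05 were among these 35, against 2905 of all 26458 probe sets below 12. The highest deposited value on any array was 20290 intensity units, and the brightest members averaged 13.9; whether signals so near the top still followed the amount of RNA was not tested.

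**Figure D2:**
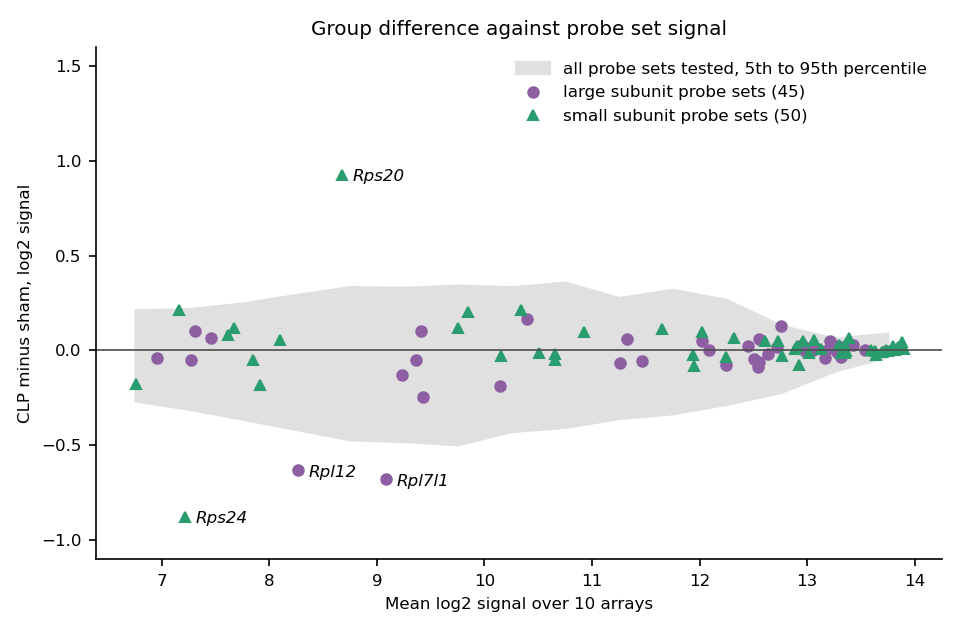
Log2 difference, CLP minus sham (vertical), against the mean log2 signal over the 10 arrays (horizontal) for the 45 large subunit and 50 small subunit probe sets tested; the grey band holds the 5th to 95th percentile of all probe sets tested, in bins of signal. Above a signal of 12 all members lie between -0.09 and 0.13, while the labelled probe sets of Rps24, Rpl12, Rps20 and Rpl7l1 lie outside the band.

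Several probe sets read the same message at different places or in different forms. Of the 21 genes with more than 1 tested probe set, 15 had all their differences within 0.2 log2 units of each other, and the median gap was 0.07. In Rps29, Rps28 and Rps14 the gap was 0.01, 0.02 and 0.02. In 11 of the 21 genes the probe sets had both signs, mostly around 0. The widest gaps were those of Rps24 (1.00), Rps20 (0.94), Rpl7l1 (0.75) and Rps10 (0.28). Probe set names ending in x mark probes that can match other sequences as well, and 37 of the 95 member probe sets carried that mark (38.9%), against 6.28% of all probe sets tested. Plain names, with no such mark, made up 27 of 95 (28.4%), against 76.8% of all. Ribosomal protein genes have many processed pseudogenes, and how far these add to the signals was not tested.

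Rps24 gave the member probe set that passed. All but 1 of its 6 tested probe sets differed by between -0.08 and 0.12, and the remaining one, the dimmest (mean log2 signal 7.22), was lower in CLP. Its signals were 7.25, 6.80, 6.62, 7.05 and 6.19 in CLP replicates 1 to 5 and 7.54, 7.70, 7.79, 7.49 and 7.76 in sham replicates 1 to 5. Every CLP array lay below every sham array, and CLP replicate 5 lay close to the floor of 6.14. The log2 difference was -0.88 ± 0.17 (SE, adjusted p = 0.0489 by limma), a 1.84-fold lower signal. The brightest probe set had 12.71, 12.94, 12.72, 12.84 and 12.53 in CLP replicates 1 to 5 and 12.58, 12.97, 12.63, 12.97 and 12.73 in sham replicates 1 to 5, with the groups intermixed. Rps24 messages are spliced into forms that differ at their 3 prime end; which form the dim probe set reads was not tested. The pass did not hold without any 1 of CLP replicates 2, 3 and 5 or of the 5 sham replicates, where the adjusted p was between 0.0926 and 0.146; leaving out CLP replicate 1 or 4 it was 0.0131 and 0.0459. With the 18S class as a block the adjusted p was 0.0287, and the difference was -1.01 in the high and -0.67 in the low class.

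Rps20, a protein of the small subunit head, had a dim probe set that was higher in CLP. This probe set (mean log2 signal 8.67) had signals of 9.05, 9.42, 9.18, 8.95 and 9.08 in CLP replicates 1 to 5 and 7.55, 8.90, 8.07, 8.59 and 7.93 in sham replicates 1 to 5. All CLP arrays lay above all sham arrays, narrowly so for sham replicate 2. Among sham arrays the low 18S class (replicates 2 and 4) gave the higher values. The log2 difference was 0.93 ± 0.22 (SE), with an adjusted p = 0.0931 by limma that misses the threshold and 0.0251 with the 18S class as a block. It was 1.26 in the high and 0.44 in the low class. The 2 brightest probe sets of the gene differed by -0.002 ± 0.07 and -0.01 ± 0.08, and their arrays overlapped. The remaining probe set, the dimmest of the gene, gave 0.22 ± 0.13 (SE, adjusted p = 0.666), the same sign as the described one.

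Rpl12, a protein at the base of the stalk, was tested by a single probe set. Its signals were 8.13, 7.83, 7.94, 8.19 and 7.68 in CLP replicates 1 to 5 and 8.69, 8.43, 8.48, 8.35 and 8.99 in sham replicates 1 to 5. The groups did not overlap: the highest CLP array (8.19) lay below the lowest sham array (8.35). The difference of -0.63 ± 0.14 (SE) missed the threshold (adjusted p = 0.0711 by limma) and passed it with the 18S class as a block (adjusted p = 0.0387), with -0.81 in the high and -0.37 in the low class. Rpl7l1 had a probe set at 9.34, 8.45, 8.66, 8.75 and 8.51 in CLP replicates 1 to 5 and 9.63, 9.03, 9.51, 9.13 and 9.81 in sham replicates 1 to 5. All but CLP replicate 1 lay below the sham arrays. Its difference was -0.68 ± 0.19 (SE, adjusted p = 0.147 by limma, and 0.0449 with the block), while the brightest probe set of the gene gave -0.05 ± 0.21. The remaining probe set, the dimmest of Rpl7l1, gave 0.07 ± 0.11 (SE). With the block 4 of the 95 member probe sets passed (4.21%), 1 higher and 3 lower in CLP, where 718 of all probe sets passed (2.66%).

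**Figure D3:**
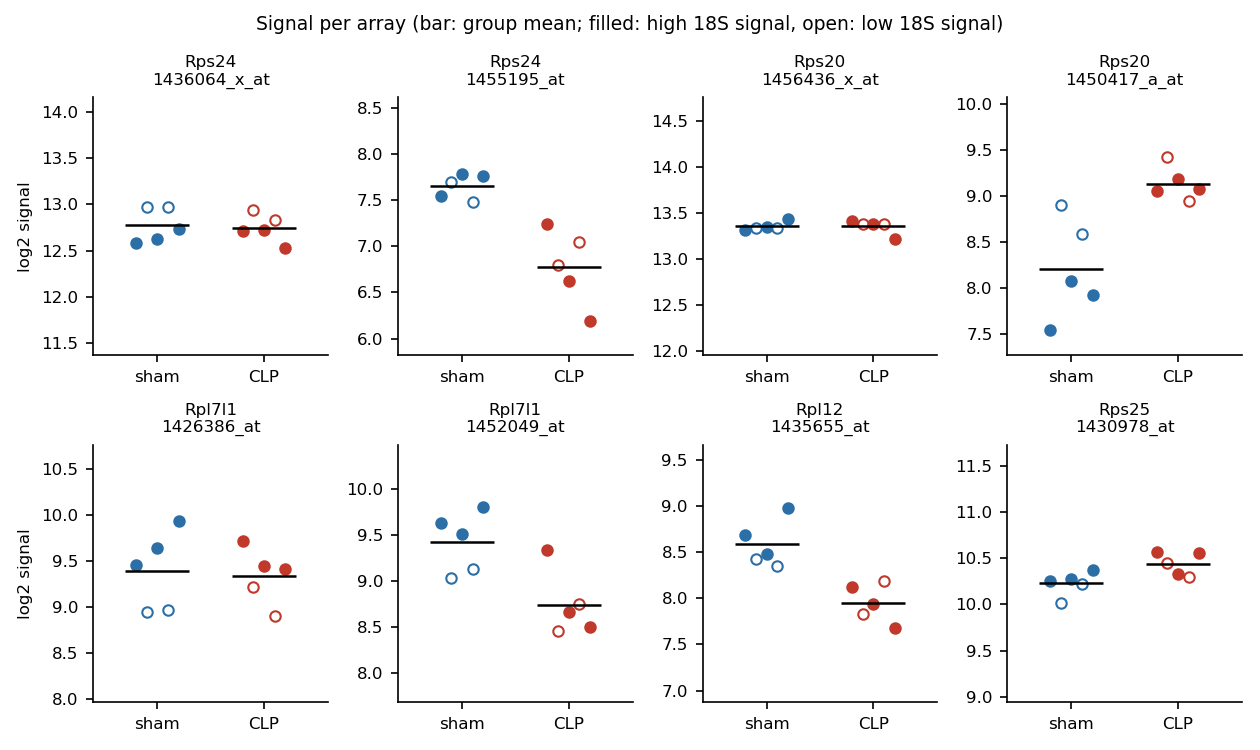
Log2 signal of each array (points; filled for the high and open for the low 18S class) in sham (blue) and CLP (red) mice, with group means as bars, for the brightest and a dimmer probe set of Rps24, Rps20 and Rpl7l1 and for the tested probe set of Rpl12 and of Rps25. Each panel spans the same number of log2 units; the bright sets of Rps24 and Rps20 overlap between groups, while the dim sets of Rps24 and Rps20 and that of Rpl12 do not.

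Ribosomal protein signals also differed between the 18S classes, which both surgery groups share. In 8 of the 45 genes (17.8%) every array of one class lay above every array of the other, against 11.5% of all genes tested. Lower in the high 18S class were Rpl11, Rpl22l1, Rpl41, Rps24, Rps27l, Rps3 and Rps7, and higher was Rpl7l1. Over all 13073 genes, 541 were lower and 958 higher in the high class in this way. Rps27l lay between 10.29 and 10.64 in the high class and between 10.72 and 11.16 in the low class, a mean difference of -0.57. Rps24 by its brightest probe set lay between 12.53 and 12.73 in the high and 12.84 and 12.97 in the low class. Rpl7l1 went the opposite way, from 9.41 to 9.93 in the high and from 8.90 to 9.21 in the low class. Over the members the median difference, high minus low, was -0.01, and its median size without sign was 0.116, beside 0.154 over all genes. The classes were read from the data and are given as values with no test.

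**Figure D4:**
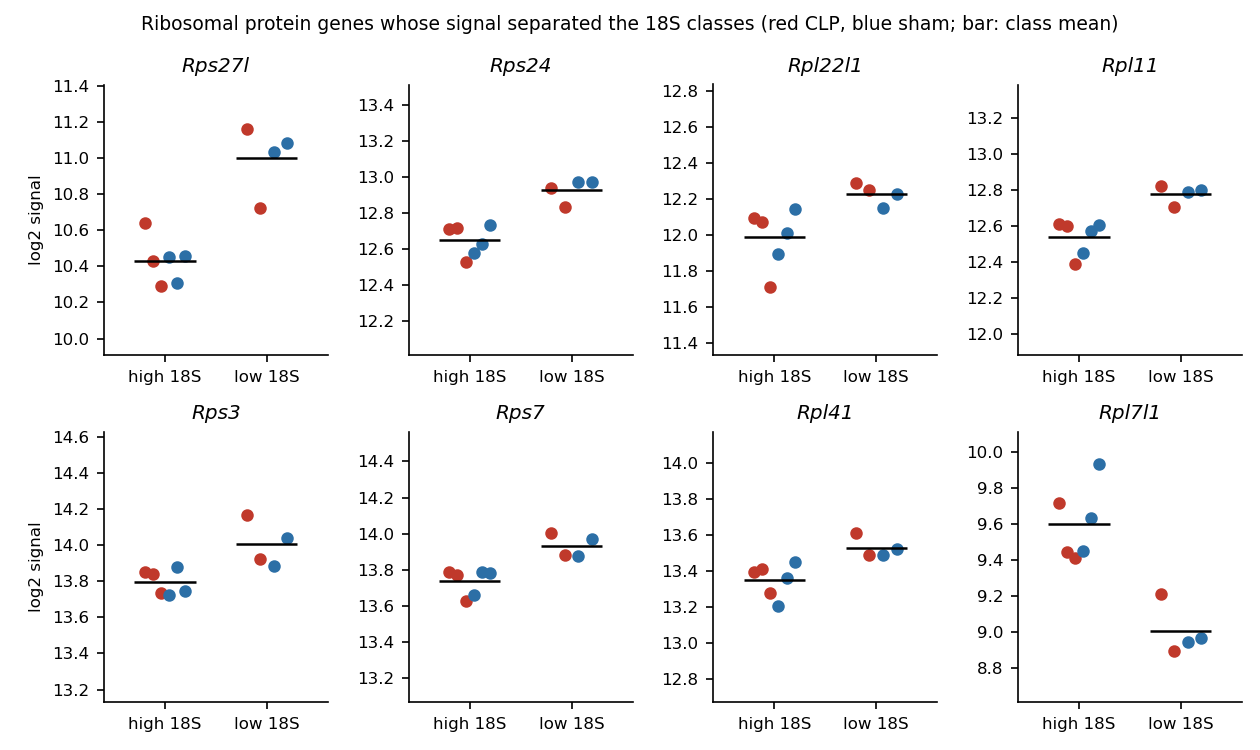
Log2 signal of each array in the high (6 arrays) and low (4 arrays) 18S class for the 8 ribosomal protein genes whose brightest probe set separated the classes, with CLP in red, sham in blue and class means as bars. In the high class 7 genes were lower and Rpl7l1 was higher.

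The 11 member probe sets that were too dim to test lay between the floor and a mean of 6.64, and 4 of them were at the floor on all 10 arrays. Rpl3l, a paralogue of striated muscle, and Rpl39l, a paralogue of the testis, were among them, at mean signals of 6.22 and 6.58. Rps4l and Rps16 were at the floor on every array and Rps27 had a mean of 6.23, each by its only probe set with this symbol alone. Rps16 and Rps27 are standard small subunit proteins, and no level of their messages is drawn from these probe sets. Other genes of the ribosome, such as Rpl5, Rplp1 and Rpl36al, are read by probe sets with several symbols only, and 31 ribosomal protein symbols were of that kind.

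Other genes of translation were described by lists. Of the 7 measured elongation factor genes (8 listed) and the 29 measured initiation factor genes (34 listed), none passed by its brightest probe set, and the median difference over these 36 was -0.01. Their probe sets numbered 85, of which 1 passed, beside 190 of all 27022 probe sets tested (0.703%). It was a dimmer probe set of Eif5, which triggers GTP hydrolysis by eIF2 at the start codon. This probe set fell by 0.98 ± 0.19 (SE, adjusted p = 0.0459 by limma), while the brightest probe set of Eif5 gave 0.03 ± 0.07. Eef1e1, a scaffold protein of the aminoacyl-tRNA synthetase complex, had the lowest p of the elongation list, with -0.41 ± 0.12 (adjusted p = 0.156). Eif2ak3 (PERK), the kinase that stops initiation during endoplasmic reticulum stress, gave 0.70 ± 0.20 (adjusted p = 0.142), and Eif4a2, a helicase of initiation, -0.35 ± 0.11 (adjusted p = 0.199). Among 7 measured genes of other TOP messages and ribosome-bound proteins none passed, and none had an unadjusted p under 0.05. The lowest p-values there were those of the nucleolar protein Npm1 (-0.16 ± 0.12) and the RNA-binding protein Hnrnpa1 (0.16 ± 0.18). None of 14 measured genes of the mTORC1 arm passed either, and 4 had an unadjusted p under 0.05 (28.6%, against 11.8% of all genes). There, Mlst8, a subunit of mTORC1, and Eif4ebp2, a repressor of initiation that mTORC1 inactivates, gave 0.21 ± 0.08 and 0.33 ± 0.14, with adjusted p-values of 0.365 and 0.386. Tsc1, an inhibitor of mTORC1, and Rheb, its activator, had the opposite sign, with -0.30 ± 0.13 and -0.32 ± 0.13 (adjusted p = 0.395 and 0.398). Of the 76 mitochondrial ribosomal protein genes, read by 132 probe sets, none passed by limma, 8 had an unadjusted p under 0.05 (10.5%), and 49 were lower in CLP on average (64.5%, against 48.8% of all genes), with a median of -0.06 beside 0.005. Mrps25 (-0.54 ± 0.15) had the lowest p of their brightest probe sets, with an adjusted p = 0.13. Among all 132 probe sets the lowest p was that of a dimmer one of Mrpl15, at 0.93 ± 0.23 (SE, adjusted p = 0.0992 by limma). Another dimmer Mrpl15 probe set gave -0.29 ± 0.08 (adjusted p = 0.15 by limma).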

How the data were processed

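The deposited table held linear intensities, 1 per probe set and array, as the authors left them. The software, background correction and scaling behind them: not given in the sources used here. Per the labels' protocols, RNA was amplified in 2 rounds and labelled with biotin. A platform annotation table named the genes, and all 50 member symbols were unchanged in RefSeq (GRCm38.p6).

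Arrays were brought to the same median. Values below the 25th percentile (70.4) were set to it before log2. Leaving out 64 controls and probe sets averaging below the 40th percentile kept 27022. Groups of 5 arrays were fitted without covariates (R 4.3.3, limma 3.58.1), and SE is the moderated standard error. The number of arrays limits the precision. Alternatives were other scalings, floors, filters and variance options, blocks for 18S class or replicate number, and each array left out. The fit was tested on simulated arrays.

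The members and lists were chosen with earlier results of these data known. Genes named were those past the threshold, the 5 lowest p, 4 largest rises and 4 largest falls of each subunit, a fixed set, the 4 genes whose probe sets differ most, and the lowest p of other lists; the split at a log2 signal of 12, the ETS motif search, Rps28, Rps29, Rps14, Tsc1, Rheb and the genes named for the 18S class (an intensity of 1000) were chosen after their values were seen. Each CLP title has a replicate number of its own. Every sham title gives replicate 1, and only a suffix from 1 to 5, used as the replicate number, tells them apart. The titles therefore do not settle that the sham arrays came from 5 separate mice, which was assumed. Figures were drawn with matplotlib 3.10.9.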

Additional observations from a re-analysis of the deposited data

Results flagged for a closer look

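Among 64 groups of 5 arrays examined for the named genes, probe sets and subunit means, 3 held an array far from the other 4, where chance gives about 1 in 20. Rpl14 had a log2 signal of 9.75 in sham replicate 5, while the nearest sham array was at 9.25. The brightest probe set of Rps20 was low in CLP replicate 5, at 13.21 with the nearest CLP array at 13.38, and high in sham replicate 5, at 13.44 with the nearest sham array at 13.35.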

How the results depend on the processing

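The median differences of both subunits moved by less than the spread between arrays under all 25 alternatives: over the 15 that keep all arrays or split them by 18S class they lay between -0.03 and 0.04 for the large and between 0.001 and 0.04 for the small subunit, and with each array left out between -0.04 and 0.03 and between -0.02 and 0.04. Of 30 named results, 25 moved by less than their spread and kept their side of the threshold in every alternative. The large subunit count of 0 became 2 with the 18S class as a block and 1 with array weights, and 0 to 1 with an array left out. The small subunit count of 1 became 2 with the 18S block and 0 to 1 with an array left out. It became 0 with robust variance, no filter, the high or the low 18S arrays alone and the replicate block. With the filter at the 60th percentile it was also 0, but there the dim Rps24 probe set was left out and not tested. The dim Rps24 probe set passed in 10 of 23 alternatives, with differences from -1.01 to -0.67. Rpl12 passed in 2 of 25, the dim Rps20 probe set in 1 of 24 and the dim Rpl7l1 probe set in 2 of 24. With an array left out, neither Rpl12 nor the dim Rps20 probe set passed. The count over all probe sets was 718 with the 18S block, 509 with array weights, 3 with no filter and 0 in either class alone, and 4 to 506 with an array left out. Mitochondrial ribosomal proteins gave 2 with the 18S block, 1 with array weights and 0 to 2 with an array left out; translation factors gave 2 with the 18S block, 0 with no filter or either class alone, and 0 to 3 with an array left out. The replicate block gave 248 calls over all probe sets and 0 among large and small subunit members. With it the adjusted p was 0.0694 for the dim Rps24 probe set, 0.102 for Rpl12, 0.052 for the dim Rps20 and 0.0801 for the dim Rpl7l1 probe set. Same-numbered arrays deviated together with correlations from 0.06 to 0.58, 4 of 5 over 0.1, and the low 18S class was numbers 2 and 4 in both groups. The labels do not say that a number marks a shared day or batch, so the numbers were not taken as pairs, and whether they mark one is not known. Here 1 of 5 CLP arrays correlated best with its own number. The low 18S class alone has 2 arrays a group. Signals close to the floor limit the dim probe sets.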

Other observations

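Ribosomal protein names also occur on 110 probe sets with several gene symbols, often the gene and its pseudogenes, which were outside the members. Of these, 103 were tested, none passed, 2 had an unadjusted p under 0.05, and the groups overlapped in all. Over all probe sets tested 0.703% passed, 10.9% had an unadjusted p under 0.05, and the groups did not overlap in 2.97%. The median difference of the 103, CLP minus sham, was 0.006, with a range from -0.43 to 0.32. The largest fall was that of the probe set shared by Rpl15 and a predicted gene, at 10.14 ± 0.30 (SD, n = 5) in CLP and 10.58 ± 0.21 in sham arrays (adjusted p = 0.257 by limma).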
